A study of Mus musculus with 54 samples.

Results

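The 9 genes described here mark microglia, the resident macrophages of the brain. They are *P2ry12*, *Cx3cr1*, *Csf1r*, *Trem2*, *Tmem119*, *Aif1*, *C1qa*, *C1qb* and *C1qc*, chosen by symbol, and all 9 were found by Ensembl identifier among the 30031 genes of the count table. RNA came from the suprachiasmatic nucleus (SCN), the hypothalamic seat of the master circadian clock, cut out by laser-capture microdissection from male C3H/HeH mice aged 10 to 12 weeks and kept on 12 hr of light and 12 hr of darkness. By the labels, groups differ in zeitgeber time (ZT, hours after lights on), with 3 biological replicates at each of ZT2, ZT6, ZT10, ZT14, ZT18 and ZT22. Every replicate pooled tissue of 5 animals, was amplified from about a nanogram of RNA and was sequenced on 3 lanes, giving 54 lane samples and 18 libraries. The labels name no allele or agent, the headers of the tables carry the letters WT for every library, every group shares the strain and sex, and a pool hides the differences between its animals. The question put to these genes is whether they shift together over the day, as a marker set would, or each by itself.

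Microglia survey neural tissue with mobile processes and clear debris and synapses. ADP released by injured cells draws their processes through the receptor P2RY12, neurons signal to them through the chemokine CX3CL1 and its receptor CX3CR1, and they depend for survival on CSF1R, which binds CSF1 and IL-34. They are also the main source of C1q in the brain, a complement starter assembled from the products of *C1qa*, *C1qb* and *C1qc*, and they carry TREM2, a lipid-sensing receptor that signals through the adaptor TYROBP. TMEM119 is a membrane protein and AIF1 (IBA1) a calcium-binding, actin-associated protein, both widely used to stain microglia.

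Between 15412981 and 35820945 reads per library were counted on genes. In the study's principal component plot, labelled by timepoint and sequencing batch, the libraries fall into 3 clusters, which join ZT2 to ZT22, ZT10 to ZT6 and ZT18 to ZT14. From the timing of clock genes the study judged any batch effects of sequencing to be minimal, but the labels name no batch. A change between clusters and a batch that followed them therefore cannot be told apart, and the steps inside a cluster (ZT6 to ZT10, ZT14 to ZT18 and ZT22 to ZT2) are the ones such a batch would not touch. The libraries also differed by base composition. In the decile of genes richest in G and C (57.6% to 70.7% of the transcript), the median level stood between -1.305 and -0.51 log2 units relative to the genes' own means in the 6 libraries of ZT22 and ZT2, and between 0.20 and 0.64 in the other 12. In the decile poorest in G and C these medians lay between -0.18 and 0.38. The deposited tables also differed along one cluster. Reads of the 9 genes recovered from the normalized table differed from the counts by -8.20% to -5.96% in the 6 libraries of ZT6 and ZT10 and by 0% to 0.148% in the other 12.

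All 9 genes code for protein and all passed the filter on low counts. On GRCm38, *P2ry12* lies on chromosome 3 (59216272-59262871, minus strand), *Cx3cr1* on chromosome 9 (119901616-120069879, minus) and *Tmem119* on chromosome 5 (113793729-113800516, minus). The complement genes stand side by side on the minus strand of chromosome 4, *C1qb* at 136880129-136886187, *C1qc* at 136889804-136893065 and *C1qa* at 136895917-136898803. *Aif1* (35170991-35176068, minus) and *Trem2* (48346401-48354147, plus) are both on chromosome 17. Exons of *Csf1r* share 873 bases with *Hmgxb3* on the other strand, those of *Cx3cr1* 78 bases with *Gm33858* and those of *P2ry12* 9 bases with *Med12l*. Strand was not stated for the counting, so reads from these bases cannot be assigned to either gene. Per kilobase of principal transcript, the mean level over the 18 libraries was highest for *C1qb* (33.8 CPM per kb, where CPM is the read count scaled to the library total by TMM), then *P2ry12* (27.2), *C1qa* (17.5), *Aif1* (16.1), *C1qc* (10.1), *Trem2* (9.50), *Csf1r* (7.99), *Cx3cr1* (7.23) and *Tmem119* (5.30).

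Base composition sets the members apart, as the coding sequences of the 4 genes that differed between ZT2 and ZT6 show. Each line gives the stretch of 90 coding bases whose share of G and C is nearest to that of the whole coding sequence, 5′ to 3′, with G and C in capitals. Bases 112 to 201 of *P2ry12*, bases 52 to 141 of *Cx3cr1* and bases 7 to 96 of *C1qa* and *C1qc* are shown, counted from the start codon on GENCODE M21 transcripts.
P2ry12: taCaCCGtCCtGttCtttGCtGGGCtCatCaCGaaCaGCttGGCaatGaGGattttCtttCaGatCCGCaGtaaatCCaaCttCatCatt
Cx3cr1: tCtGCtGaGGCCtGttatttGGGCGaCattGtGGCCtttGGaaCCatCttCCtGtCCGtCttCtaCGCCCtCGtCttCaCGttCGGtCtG
C1qa: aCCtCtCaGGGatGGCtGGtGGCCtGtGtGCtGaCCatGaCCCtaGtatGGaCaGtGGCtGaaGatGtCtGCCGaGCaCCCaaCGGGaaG
C1qc: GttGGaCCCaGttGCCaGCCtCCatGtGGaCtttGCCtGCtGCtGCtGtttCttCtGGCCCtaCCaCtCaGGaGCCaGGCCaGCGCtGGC
The whole coding sequence holds 43.9% G and C in *P2ry12*, 54.6% in *Cx3cr1*, 58.8% in *C1qa* and 61.9% in *C1qc*. Over the whole transcript *P2ry12* (38.6%) falls in the lowest decile of genes, *Cx3cr1* (50.3%) and *Aif1* (51.4%) in the sixth, *Csf1r* (54.5%) in the eighth, *C1qb* (57.3%), *Trem2* (57.5%) and *C1qc* (57.5%) in the ninth and *Tmem119* (59.0%) and *C1qa* (59.5%) in the highest.

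Windows of 250 bases before the RefSeq start (GRCm38.p6) were found for 6 members and searched on both strands for GAGGAA, the core bound by the myeloid factor PU.1 (23.3% of all 32851 windows), and for CACGTG, the E-box bound by clock factors (6.02%). The PU.1 core was present in *C1qb*, *C1qc*, *Aif1* and *Trem2*, and the E-box in *P2ry12*, whereas the window of *Cx3cr1* held neither. The windows of *C1qb* (chr4:136886201-136886450, minus strand) and *Trem2* (chr17:48346151-48346400, plus strand), the members whose level did not pass the time test described next, are printed 5′ to 3′ with the core or its complement in capitals.
C1qb: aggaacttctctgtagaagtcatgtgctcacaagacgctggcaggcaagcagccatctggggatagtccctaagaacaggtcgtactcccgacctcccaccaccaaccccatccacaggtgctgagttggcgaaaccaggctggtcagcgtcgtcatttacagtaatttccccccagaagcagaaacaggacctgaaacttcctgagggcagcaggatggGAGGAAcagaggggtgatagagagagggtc
Trem2: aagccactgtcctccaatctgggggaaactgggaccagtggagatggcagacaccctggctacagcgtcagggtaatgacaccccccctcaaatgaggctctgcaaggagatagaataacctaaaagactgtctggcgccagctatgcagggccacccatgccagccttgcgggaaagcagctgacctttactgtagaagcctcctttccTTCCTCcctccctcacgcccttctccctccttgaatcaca
The core lies 30 bases before the start in *C1qb* and 40 in *Trem2*. Such a match describes the letters and does not show binding.

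Expression changed with time for 7 of the 9 genes (edgeR quasi-likelihood F-test over 6 timepoints, Benjamini–Hochberg q under 0.05 over 18941 genes), beside 44.0% of all tested genes. That share includes genes with few reads, whereas all 9 members had at least 11 reads in every library. In a fit limited to the 11444 genes with at least 10 reads in every library, 7786 changed with time, including the same 7. The 7 did not share a time course. *P2ry12* and *Cx3cr1* were highest at ZT22 and ZT2, *C1qa* and *C1qc* at ZT10, *Csf1r* and *Tmem119* at ZT14 and *Aif1* at ZT6. *C1qb* (q = 0.38) and *Trem2* (q = 0.77) did not pass the test. In bulk tissue, fewer microglia and less of an RNA per microglial cell cannot be told apart.

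**Figure D1:**
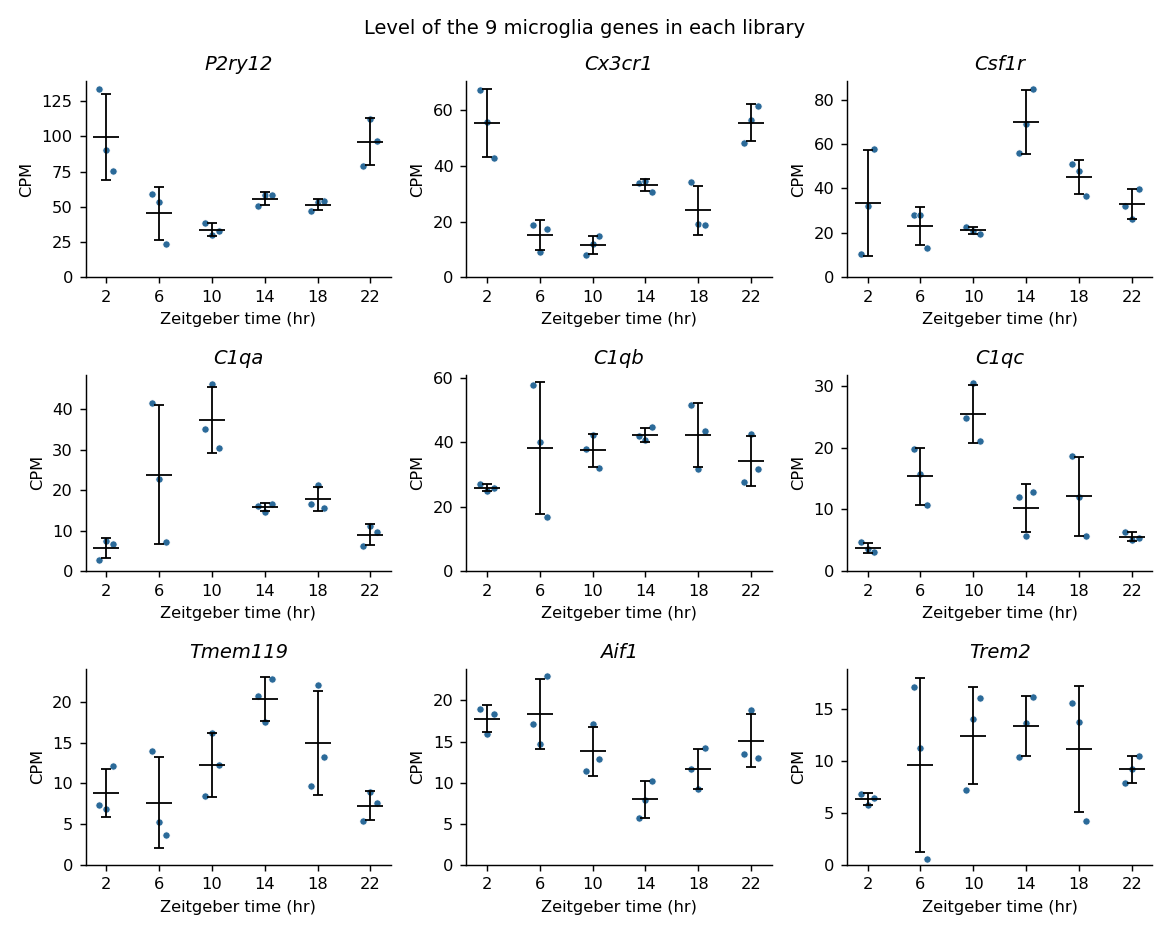
Level of each of the 9 microglia genes (CPM, vertical axis from 0) against zeitgeber time in hours, with a point for each library and a bar and whiskers for the mean and SD of 3 replicates. *P2ry12* and *Cx3cr1* are high at ZT2 and ZT22, whereas *C1qa* and *C1qc* are low there and highest at ZT10. For *C1qb*, the libraries of ZT2 (25.0 to 27.1 CPM) overlap only those of ZT6 (16.9 to 57.9), while the other timepoints overlap one another.

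*P2ry12*, the ADP receptor, measured 133.9, 90.1 and 75.2 CPM in the 3 libraries of ZT2 and 79.3, 112.7 and 96.7 at ZT22. The 12 libraries of the other timepoints lay between 23.7 and 58.9 CPM, all below every library of ZT22 and ZT2. The mean was 99.7 ± 30.5 CPM (SD, n = 3) at ZT2 and 33.8 ± 4.59 at ZT10, a 2.95-fold range (time test q = 6.0e-04). *P2ry12* fell by 1.14 ± 0.28 (SE) on the log2 scale from ZT2 to ZT6 (q = 0.0039) and rose by 0.90 ± 0.28 from ZT18 to ZT22 (q = 0.030). The second of these is less secure, as it lost significance when any of 5 libraries was left out (q up to 0.12 without ZT22 replicate B).

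*Cx3cr1*, the fractalkine receptor, was likewise highest at ZT22 and ZT2, with a wider range. Its libraries read 67.4, 55.8 and 43.0 CPM at ZT2, 18.96, 9.09 and 17.4 at ZT6 and 8.15, 11.9 and 14.7 at ZT10, then 33.8, 34.7 and 30.7 at ZT14, 34.2, 19.1 and 18.9 at ZT18 and 48.3, 56.7 and 61.6 at ZT22. No library of ZT6 or ZT10 reached the lowest of ZT2, ZT14 or ZT22. Highest and lowest timepoint means were 4.79-fold apart (q = 2.5e-05), the smallest q among the 9 genes. *Cx3cr1* fell by 1.87 ± 0.31 from ZT2 to ZT6 (q = 1.5e-04), rose by 1.51 ± 0.31 from ZT10 to ZT14 (q = 0.0024) and rose by 1.21 ± 0.30 from ZT18 to ZT22 (q = 0.0093), making it the only member called at all 3 steps between clusters.

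*Csf1r*, the survival receptor (chromosome 18, 61100598-61132149, plus strand), stood highest at ZT14, with 56.2, 69.1 and 84.7 CPM, against 22.8, 21.005 and 19.5 at ZT10. It rose by 1.73 ± 0.43 on the log2 scale between these timepoints (q = 0.0093), and their libraries did not overlap. The libraries of ZT2 disagreed among themselves, at 10.2, 32.0 and 57.9 CPM, so the step from ZT2 to ZT6 was -0.54 ± 0.42 (q = 0.34). Without ZT2 replicate A that step was -0.97 (q = 0.033), while the time test (q = 0.015) was lost without ZT14 replicate C (q = 0.065).

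The 3 chains of C1q, whose proteins assemble into a single complex, did not move together. *C1qa* read 2.77, 7.32 and 6.74 CPM at ZT2, 41.5, 22.8 and 7.19 at ZT6 and 35.1, 46.4 and 30.5 at ZT10, a 6.66-fold difference between the means of ZT10 and ZT2 (time test q = 0.0015). *C1qc* read 4.69, 3.53 and 3.04 CPM at ZT2, 19.8, 15.7 and 10.6 at ZT6 and 24.9, 30.5 and 21.1 at ZT10, a 6.80-fold difference (q = 3.3e-04). *C1qb* read 27.1, 25.0 and 25.7 CPM at ZT2, 57.9, 40.2 and 16.9 at ZT6 and 37.9, 42.3 and 32.1 at ZT10, and its highest and lowest timepoint means were 1.64-fold apart (q = 0.38). For *C1qc* the libraries of ZT2 and ZT6 were apart, whereas for *C1qa* ZT6 replicate C reached down into the range of ZT2, and for *C1qb* the same library was the lowest of all 18. Without it the time test for *C1qb* gave q = 0.042 and its step from ZT2 to ZT6 was 0.92 (q = 0.0074).

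From ZT2 to ZT6, *C1qa* rose by 2.08 ± 0.48 (SE) on the log2 scale (q = 0.0025) and *C1qc* by 2.04 ± 0.42 (q = 0.0011), while the difference for *C1qb* was 0.56 ± 0.32 (q = 0.18). From ZT10 to ZT14, *C1qc* fell by 1.32 ± 0.41 (q = 0.032), a call lost when either of 2 libraries of ZT10 or either of 2 of ZT14 was left out (q up to 0.13), and *C1qa* differed by -1.25 ± 0.46 (q = 0.073). Later in the night the libraries of *C1qc* lay between 5.68 and 18.7 CPM at ZT18 and between 5.07 and 6.41 at ZT22, a step of -1.12 ± 0.41 (q = 0.066).

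The same split shows in the ratio of CPM within each library, which total depth does not affect. Base composition can still affect it, as *C1qa* lies in the highest GC decile, whereas *C1qb* and *C1qc* both lie in the ninth. The ratio of *C1qa* to *C1qb* ran from 0.102 to 0.293 at ZT2, from 0.426 to 0.717 at ZT6 and from 0.926 to 1.10 at ZT10, then from 0.361 to 0.383 at ZT14, from 0.320 to 0.669 at ZT18 and from 0.226 to 0.304 at ZT22. Every library of ZT10 exceeded every library of the other timepoints. The ratio of *C1qc* to *C1qb* was likewise highest at ZT10 (0.657 to 0.721) and low at ZT2 (0.119 to 0.173) and ZT22 (0.119 to 0.232). The ratio of *C1qa* to *C1qc* had means between 1.41 (ZT6) and 1.81 (ZT18), but its libraries spread widely, from 0.590 to 2.21 at ZT2, from 0.676 to 2.10 at ZT6 and from 0.889 to 2.76 at ZT18. The ratio of *P2ry12* to *C1qa*, genes of the lowest and the highest GC decile, had the widest span, from 0.640 to 1.10 at ZT10 to between 11.2 and 48.3 at ZT2.

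**Figure D2:**
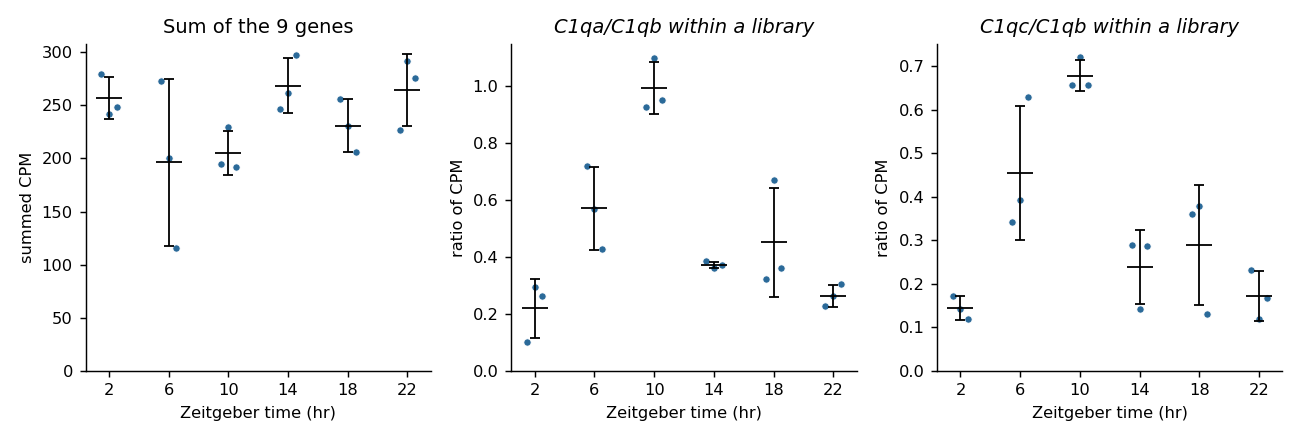
Summed CPM of the 9 genes (left) and the ratios of *C1qa* and of *C1qc* to *C1qb* within a library (middle and right) against zeitgeber time in hours, with points for libraries and mean and SD of 3 replicates. The sums overlap between most timepoints, whereas both ratios peak at ZT10, where *C1qa* to *C1qb* reaches 0.926 to 1.10.

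The remaining 3 members had less certain time courses. *Tmem119* read 20.7, 17.5 and 22.8 CPM at ZT14 and 5.36, 8.93 and 7.53 at ZT22, the timepoints of its highest and lowest mean (2.80-fold). The time test passed narrowly (q = 0.048), no step between neighbouring timepoints passed, and leaving out any of 13 libraries ended the call (q up to 0.12 without ZT14 replicate C). *Aif1* ran the other way, at 17.2, 14.7 and 23.0 CPM at ZT6 and 5.75, 7.84 and 10.3 at ZT14, without overlap (2.30-fold, time test q = 0.027). Its call rested on ZT14, since it was lost without ZT14 replicate A (q = 0.11) or replicate B (q = 0.081). For *Trem2* the libraries of ZT6 read 17.05, 11.2 and 0.521 CPM, the last from 11 reads in replicate C, and the within-timepoint SD of 1.19 log2 units was the largest among the 9 genes.

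Inside the clusters none of the 9 genes passed the test. The counts were 0 of 9 from ZT6 to ZT10 (0.0475% of all genes), 0 of 9 from ZT14 to ZT18 (0.570%) and 0 of 9 from ZT22 to ZT2 (0.0317%), in edgeR's test and equally with DESeq2. At an unadjusted p under 0.05 the counts were again 0 in each of these steps, beside 10.8%, 13.5% and 3.59% of all genes. Log2 differences ranged from -0.42 ± 0.28 (*P2ry12*) to 0.73 ± 0.40 (*C1qc*) between ZT6 and ZT10, from -0.63 ± 0.42 (*Csf1r*) to 0.55 ± 0.30 (*Aif1*) between ZT14 and ZT18 and from -0.68 ± 0.46 (*C1qa*) to 0.27 ± 0.45 (*Tmem119*) between ZT22 and ZT2. With standard errors between 0.27 and 0.70, differences of this size were not detectable.

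Between the clusters, members rose and fell from ZT2 to ZT6 and from ZT10 to ZT14, and only rises were called from ZT18 to ZT22. From ZT2 to ZT6, 2 of 9 rose (17.5% of all genes) and 2 fell (16.3%). From ZT10 to ZT14, *Cx3cr1* and *Csf1r* rose (9.31% of all genes) and *C1qc* fell (7.52%). From ZT18 to ZT22, *P2ry12* and *Cx3cr1* rose (6.27% of all genes) and no member fell (11.9%) in this fit. With DESeq2 in its place a fall of *C1qc* was called there (q = 0.036). The median log2 difference over the members was 0.05, 0.18 and -0.31 at these steps, beside -0.03, 0.12 and -0.04 over all tested genes.

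**Figure D3:**
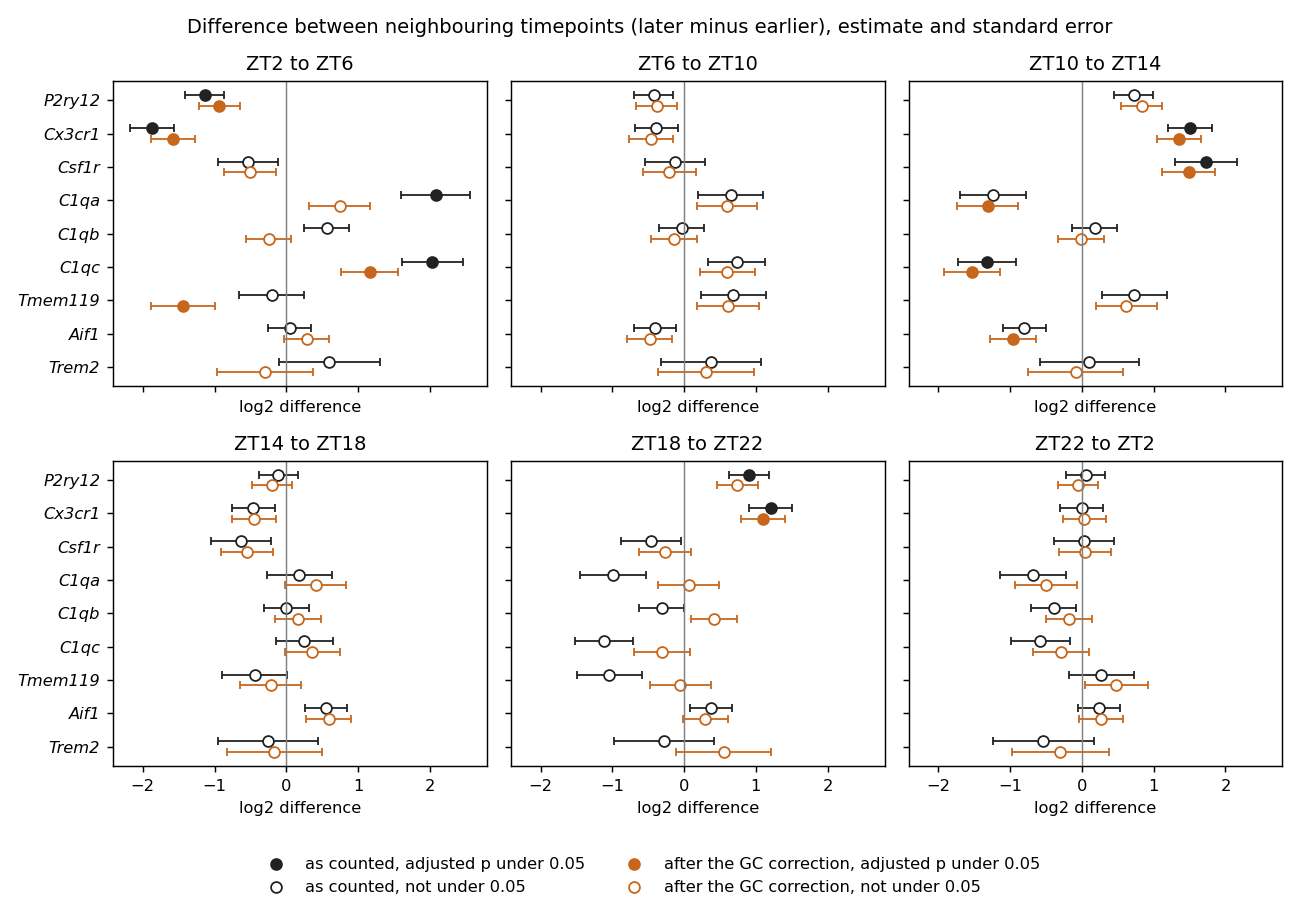
Log2 difference (later minus earlier timepoint) with its standard error for the 9 genes at each of the 6 steps, as counted (black) and after a correction for base composition (orange), with filled symbols for an adjusted p under 0.05. Filled symbols stand on both sides of 0 at ZT2 to ZT6 and ZT10 to ZT14, and no symbol is filled at ZT6 to ZT10, ZT14 to ZT18 or ZT22 to ZT2.

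From ZT2 to ZT6 and from ZT18 to ZT22 the directions ran with base composition over all genes. From ZT2 to ZT6, 64.9% of the highest GC decile rose and 2.67% fell, with a median log2 difference of 1.33, whereas in the lowest decile 16.1% rose and 26.7% fell, with a median of -0.20. From ZT18 to ZT22 the medians were -0.98 in the highest and 0.23 in the lowest decile, whereas from ZT10 to ZT14 they were 0.041 and -0.089, with the peak of 0.25 in the eighth. A fit with a library-specific offset for transcript GC, chosen after seeing the data, was therefore set beside the main one. It left 5 of the 9 genes changing with time (41.2% of all genes), with q = 0.0038 for *P2ry12*, 1.0e-04 for *Cx3cr1*, 0.027 for *Csf1r*, 0.0056 for *C1qc* and 0.0185 for *Aif1*, while *C1qa* (q = 0.084) and *Tmem119* (q = 0.12) were lost.

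The correction changed several calls at single steps. From ZT2 to ZT6, *P2ry12* still fell (-0.93 ± 0.28, q = 0.018), as did *Cx3cr1* (-1.58 ± 0.31, q = 7.2e-04), and *C1qc* still rose (1.16 ± 0.40, q = 0.033), but the difference for *C1qa* shrank from 2.08 to 0.74 ± 0.43 (q = 0.20) and *Tmem119* fell (-1.44 ± 0.44, q = 0.019), beside 16.3% of genes rising and 14.8% falling. From ZT10 to ZT14 it left *Cx3cr1* (1.36 ± 0.31) and *Csf1r* (1.49 ± 0.37) higher (7.95% of genes) and *C1qc* lower (-1.53 ± 0.39), and it brought *C1qa* (-1.31 ± 0.42, q = 0.040) and *Aif1* (-0.96 ± 0.31, q = 0.043) past the threshold (9.26% lower). From ZT18 to ZT22 *Cx3cr1* alone rose (1.10 ± 0.30, 6.31% of genes), *P2ry12* had q = 0.087, and none fell (9.70%). Inside the clusters the count stayed at 0. The part of base composition in these differences beyond this offset was not tested.

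**Figure D4:**
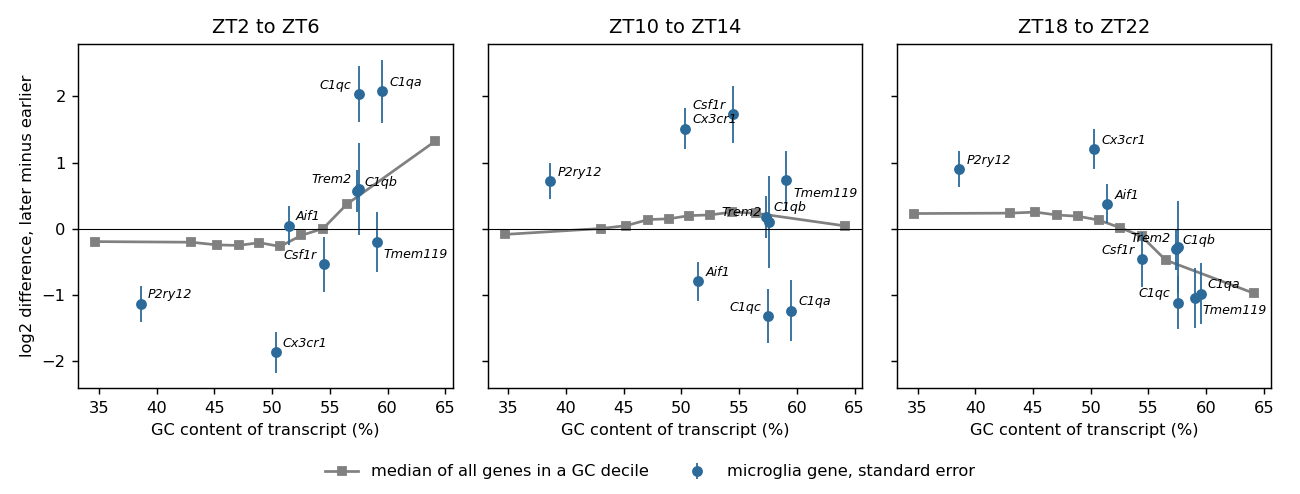
Log2 difference between neighbouring timepoints (vertical axis) against GC content of the transcript in percent (horizontal axis) at the 3 steps between clusters, for the 9 genes with standard errors (blue) and the median of all genes in each GC decile (grey). At ZT2 to ZT6 the grey line climbs to 1.33 in the highest decile, *C1qa* and *C1qc* lie above it, and *P2ry12* and *Cx3cr1* lie below it.

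The level of the whole set was followed per library. Summed over the 9 genes it averaged 257 ± 19.8 CPM (SD, n = 3) at ZT2 and 265 ± 33.9 at ZT22. ZT6 averaged 196 ± 78.7 CPM and ZT10 205 ± 20.7, while ZT14 averaged 269 ± 25.8 CPM and ZT18 231 ± 25.3. The highest and lowest means were 1.37-fold apart, in a sum whose members went opposite ways, and the range at ZT6 (116 to 273 CPM) covered most of that over all libraries (116 to 297 CPM). On the log2 scale, the mean of the 9 genes, each centred on its own mean, had an SD over timepoint means of 0.20 and an SD within timepoints of 0.36. The latter rested on ZT6 (0.79, against 0.12 to 0.25 at the other 5 timepoints), and without ZT6 replicate C these SDs were 0.18 over and 0.24 within timepoints.

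The library that stood lowest was ZT6 replicate C, with a mean of -1.08 log2 units and 7 of 9 members below their own means. *Aif1* was an exception, at its highest level of all libraries (23.0 CPM). ZT6 replicate A stood highest, at 0.48. Their timepoint thus held both ends of the range.

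Subtracting the mean of the other 8 members from each gene gave its specific part. The SD of this part over timepoint means had a median of 0.73 log2 units over the 9 genes, against 0.63 before the subtraction, and it grew for 5 of them. The SD within timepoints had a median of 0.51 before and 0.50 after, and it shrank for 7 of the 9 genes. These values are as counted, without the correction for base composition, by which the members also differ. At ZT2, *Cx3cr1* stood 1.42 ± 0.50 (SD, n = 3) and *P2ry12* 1.11 ± 0.61 log2 units above the others, with *C1qa* -1.38 ± 0.75 and *C1qc* -1.27 ± 0.48 relative to theirs. At ZT10 the order was inverted, with *C1qc* at 1.45 ± 0.24 and *C1qa* at 1.42 ± 0.25, against *Cx3cr1* at -1.50 ± 0.39 and *P2ry12* at -0.98 ± 0.43. *Csf1r* (0.90 ± 0.20) and *Tmem119* (0.75 ± 0.13) stood out at ZT14, where *Aif1* was at -1.19 ± 0.33. *C1qb* stayed nearest to the others, between -0.23 (ZT2) and 0.20 (ZT6), with an SD over timepoints of 0.15.

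A sinusoidal course with a period of 24 hr (JTK_CYCLE p under 0.05 together with the time test) was called for 6 of the 9 genes, beside 29.9% of all tested genes. That share also covers genes with few reads, and it was not computed for genes read as often as the members. Best-fitting peaks were ZT22 for *P2ry12* and *Cx3cr1*, ZT2 for *Aif1*, ZT10 for *C1qa* and *C1qc* and ZT14 for *Tmem119*. *Csf1r* passed the time test but not JTK_CYCLE (p = 0.11, exact null distribution). After the correction for base composition 4 genes were called cycling, *P2ry12*, *Cx3cr1*, *C1qc* and *Aif1*.

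Among 8 genes that work with the members as ligands, adaptors or relatives, 5 changed with time, beside 44.0% of all genes. *Cx3cl1*, the ligand of CX3CR1, read between 21.6 and 63.9 CPM at ZT2, between 109 and 175 at ZT6 and between 292 and 408 at ZT14, opposite to its receptor at the step from ZT2 to ZT6, where it rose by 1.73 ± 0.28 (SE, q = 1.4e-04) and *Cx3cr1* fell. From ZT10 to ZT14 ligand (0.99 ± 0.28, q = 0.020) and receptor both rose. From ZT18 to ZT22 they were opposite again, as *Cx3cl1* fell by 1.57 ± 0.28 (q = 7.1e-04) and *Cx3cr1* rose. *Cx3cl1* lies in the ninth GC decile, whose median log2 difference was 0.37 from ZT2 to ZT6 and -0.48 from ZT18 to ZT22. Its time test passed after the GC correction (q = 3.1e-06), while the step differences of partner genes are as counted. *Il34*, a ligand of CSF1R made by neurons, fell by 1.41 ± 0.27 from ZT2 to ZT6 (q = 6.2e-04) and rose by 1.17 ± 0.27 from ZT10 to ZT14 (q = 0.0060), the step at which *Csf1r* rose. It also rose from ZT18 to ZT22 (0.84 ± 0.27, q = 0.037), where *Csf1r* differed by -0.46 ± 0.42 (q = 0.49). *Csf1*, the other ligand, lay between 5.25 and 21.4 CPM without passing the test (q = 0.62).

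*Apoe*, a lipoprotein bound by TREM2 and made largely by astrocytes, went from between 217 and 307 CPM at ZT2 to between 1205 and 3121 at ZT6, a rise of 3.00 ± 0.35 (q = 4.8e-06). It lies in the highest GC decile, whose median log2 difference at this step was 1.33, and its time test passed after the GC correction (q = 4.9e-04). *P2ry13*, a purinergic receptor gene beside *P2ry12*, read 37.8, 17.4 and 23.97 CPM at ZT2 and 3.86, 8.72 and 0.946 at ZT6, a fall of 2.55 ± 0.61 (q = 0.0035) in the direction of *P2ry12*. *Tyrobp*, the adaptor of TREM2, changed with time (q = 0.033), with means from 31.7 ± 5.15 CPM at ZT22 to 17.1 ± 2.36 at ZT14. *Syk*, the kinase downstream of TYROBP, had at most 3.24 CPM (q = 0.27), and *P2ry6*, the UDP receptor, at most 10.9 (q = 0.13).

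**Figure D5:**
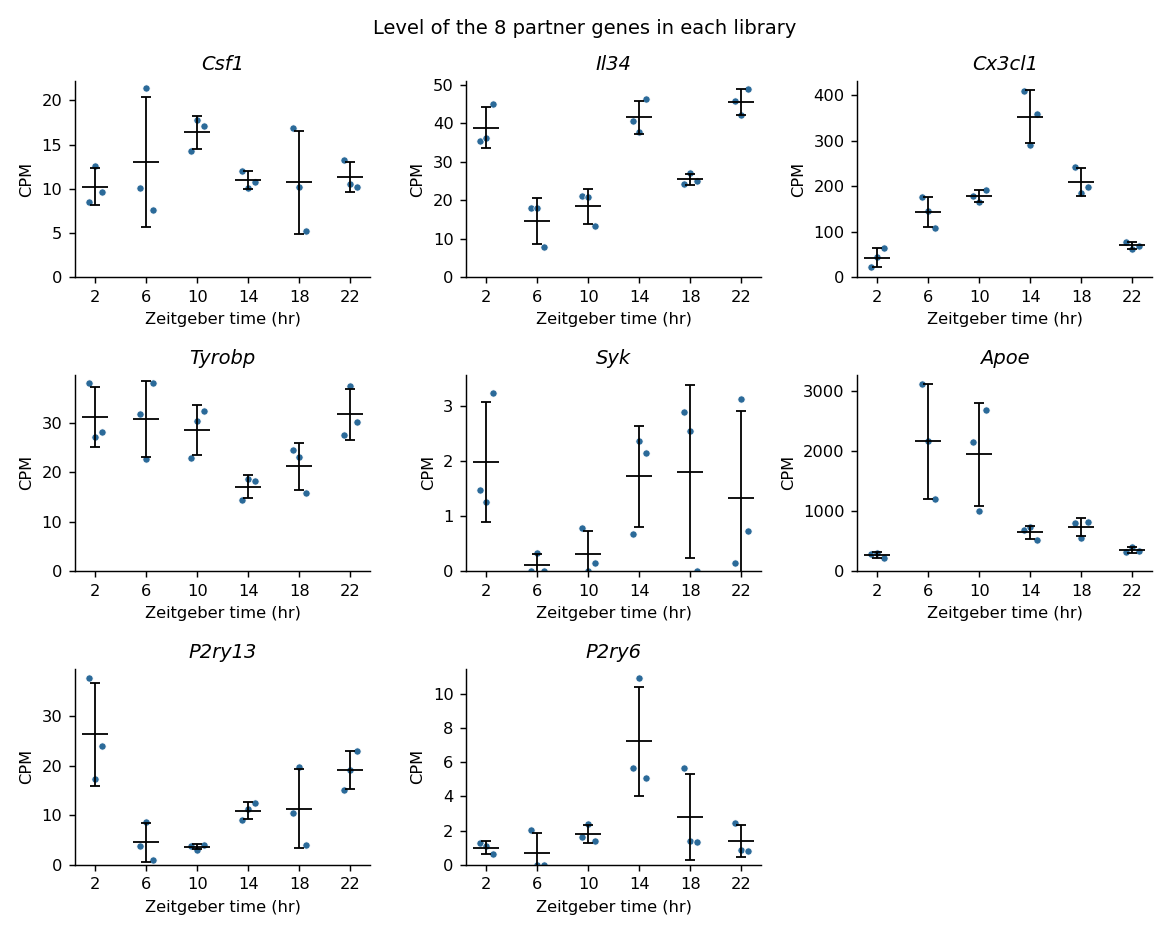
Level of the 8 partner genes (CPM, vertical axis from 0) against zeitgeber time in hours, with a point for each library and mean and SD of 3 replicates. *Apoe* rises from at most 307 CPM at ZT2 to at least 1205 at ZT6, and *Cx3cl1* peaks at ZT14, at 292 to 408 CPM.

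Other microglia and macrophage genes changed with time in 10 of the 19 tested, of 21 listed (52.6%, beside 44.0% of all genes). From ZT2 to ZT6, 6 fell (16.3% of all genes) and none rose (17.5%), with a median log2 difference of -0.74. The named examples differ in course. *Lyz2* (lysozyme) had 21.7 CPM at ZT2 and 8.25 at ZT14 (q = 0.0046), and *Selplg*, the P-selectin ligand, had 10.2 at ZT2 and 33.3 at ZT14 (q = 0.0014, and 0.45 after the correction for base composition). Summed over the 19 genes the level ran from 374 to 428 CPM at ZT2, from 165 to 293 at ZT6, from 233 to 302 at ZT10, from 275 to 284 at ZT14, from 229 to 305 at ZT18 and from 403 to 496 at ZT22. Libraries of ZT22 and ZT2 were thus above all others in this sum, whereas the sum of the 9 members overlapped between the clusters. Both sums are as counted, without the correction for base composition, and genes of high level weigh most in them.

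Of 14 genes of the classical complement pathway, its receptors and its brakes, 7 changed with time (44.0% of all genes did). From ZT2 to ZT6, 6 of them fell (16.3% of all genes) and none rose (17.5%), opposite to *C1qa* and *C1qc* as counted. The rise of *C1qa* was not called after the GC correction (q = 0.20). Several of these genes were near the floor at ZT6, where 6 of the 14 averaged below 1 CPM and 3 had no read. These 3 were among the genes that fell. *Itgb2*, a chain of complement receptor 3, had 9.56 ± 4.66 CPM at ZT2 and 1.31 ± 0.852 at ZT6 (time test q = 0.0034). *C3*, the central component, had 0.632 ± 0.827 CPM at ZT2 and 1.86 ± 1.18 at ZT22, with no read in the 3 libraries of ZT6. Counting error alone, over the reads of these 3 libraries together, allows up to 0.0453 CPM. That bound leaves out the spread between pools. Of 17 tested genes of immune activation (20 listed), 4 changed with time (23.5%, beside 44.0% of all genes). From ZT2 to ZT6, 1 rose (17.5% of all genes) and 3 fell (16.3%). Low counts limit this list, as 8 of the 17 averaged below 1 CPM at ZT6 and 4 had no read there. *Nfkbia*, an inhibitor of NF-κB, rose from 5.47 CPM at ZT2 to 35.8 at ZT6 (log2 2.71 ± 0.40, q = 5.6e-05), and *Cd74*, the MHC class II chaperone, fell from 23.2 to 2.12 (log2 -3.45 ± 0.95, q = 0.0094).

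Markers of other cells that a dissected SCN can hold were measured in the same libraries. Of 7 genes of border macrophages, which share several members with microglia, none passed the time test (7 of 7 tested), beside 44.0% of all genes. From ZT2 to ZT6, 1 fell (*Pf4*, beside 16.3% of all genes). Their sum went from 14.2 to 25.4 CPM at ZT2, from 14.3 to 18.9 at ZT22 and from 3.47 to 12.4 at ZT6. It went from 9.34 to 21.2 at ZT10, from 4.62 to 11.8 at ZT14 and from 2.93 to 12.3 at ZT18. None of the 7 genes was at 0 throughout a timepoint. *Lyve1* among them averaged from 0.0789 CPM (ZT6) to 1.70 (ZT22). Of 8 tested blood cell genes 1 changed with time (*Alas2*, q = 0.042), beside 44.0% of all genes. *S100a8* had q = 0.089, *Ccr2* had no read at ZT6, and the sum of the 8 genes ranged from 141 to 472 CPM. Astrocyte (7 of 9), oligodendrocyte (7 of 7), oligodendrocyte precursor (3 of 5), endothelial (4 of 9), neuronal (7 of 9) and SCN neuron genes (9 of 10) changed as well, beside 44.0% of all genes. Summed astrocyte markers went from between 4714 and 5865 CPM at ZT2 to between 2412 and 2796 at ZT6, and SCN neuron markers went from between 2816 and 4458 to between 5068 and 5578. No gene of these 6 lists was at 0 throughout a timepoint, and the part of any cell type in the members' levels was not tested.

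By smallest p, the examples of these lists were *Slc1a3* (q = 6.1e-06) and *Gja1* (9.7e-05) for astrocytes, *Mog* (1.4e-04) and *Cnp* (2.3e-04) for oligodendrocytes, *Pdgfra* (2.1e-05) and *Olig1* (2.1e-04) for their precursors, *Cldn5* (7.8e-07) and *Pecam1* (4.5e-05) for endothelial cells, *Snap25* (8.1e-06) and *Slc32a1* (7.5e-05) for neurons and *Avp* (3.2e-10) and *Prok2* (5.7e-08) for SCN neurons. Inside the clusters, *Syt1* (q = 0.025) and *Rbfox3* (q = 0.024) were lower at ZT18 than at ZT14 and *Prok2* was higher at ZT2 than at ZT22 (q = 0.0074), whereas no microglia gene, partner or macrophage gene was called there.

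Among 14034 genes outside these lists with a mean of at least 1 CPM, those whose log2 level over the 18 libraries was most like the mean of the 9 members were *Kcnn1* (Pearson r = 0.92), *Shisa5* (0.89), *Igfbp6* (0.88), *Aqp11* (0.88) and *Rhog* (0.88). These values share the libraries, their depth and their base composition, 4 of the 5 genes have transcripts with over 54% G and C (*Aqp11* has 49.1%), and the low level in ZT6 replicate C enters each of them.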

How the data were processed

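Total RNA of 18 SCN pools, 3 at each of 6 timepoints, was amplified with the SMARTer protocol and sequenced as paired-end reads. Per the labels and the study's methods, the authors mapped quality-filtered reads to mm10 (GRCm38) by GSNAP, and HTSeq 0.5.4p1 counted them on genes, with the lanes of a replicate combined. The authors deposited one table of raw read counts per Ensembl gene (30031 genes), whose totals of 15412981 to 35820945 reads set the precision, and one of normalized signal (31077 genes), which holds counts divided by a size factor per library. Whole reads were recovered from 100% of the values of the latter (within 0.1) and used as an alternative. Over the 26118 genes in both tables they differed from the counts by -12.5% to -11.4% in the libraries of ZT6 and ZT10 and by -2.02% to -1.24% in the others. No sample column was left unused (0 columns).

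The 18941 genes seen by 1 read or more in over 6 libraries were kept. edgeR 4.0.16 (R 4.3.3) gave TMM-scaled CPM, log2 CPM (prior count 2), a quasi-likelihood F-test that the 6 means are equal and a test of each of 6 neighbouring steps, from 1 fit to all libraries, adjusted by Benjamini–Hochberg at a threshold of 0.05. Replicates are pools of different animals. JTK_CYCLE (period 24 hr, 6 lags, exact null distribution, Bonferroni over lags, two-sided) was written in Python 3.11.15. These steps were tested on simulated data. A table of symbols, lengths, GC content and coding sequences came from GENCODE M21, which named 97.2% of identifiers, and promoter windows came from RefSeq. The GC correction used 20 bins of transcript GC and genes with mean log2 CPM above 3, as an offset per library. Alternatives were DESeq2 1.42.0, its size factors, upper-quartile scaling, 2 other filters, a cosinor fit (limma 3.58.1), the replicate letter as a block and leaving out each library.

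The members, gene lists and tests were chosen with earlier results of these data known. All members and partners are named. Of each other list the 2 tested genes with the smallest time-test p are named, with any gene called inside a cluster, and outside the lists the 5 genes most like the members' mean. *Ccr2* was named after its values were seen. Of the lists, 2 genes are not reported here and entered no list count.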

Additional observations from a re-analysis of the deposited data

How the results depend on the processing

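Scaling moved the median of all genes by up to 0.18 log2 units in a library (upper quartile), and no member called at a step changed direction under any alternative. From ZT10 to ZT14 the 3 members called became 5 with DESeq2, with upper-quartile scaling and with the GC correction, alone or with the replicate block, and 2 to 5 when a library was left out, the highest without ZT6 replicate C. *C1qa* was among the genes gained in all of these except the GC correction with the block. From ZT18 to ZT22 the 2 members called became 1 with the GC correction, alone or with the replicate block, and 1 to 3 when a library was left out, with 1 after omission of replicate A or B of ZT18 or replicate B or C of ZT22. Falls were gained at this step. *C1qc* was called lower with DESeq2 (-1.04, q = 0.036) and with at least 10 reads in every library (-1.14, q = 0.036). It was also called lower without ZT18 replicate C (-1.455, q = 0.010), and *C1qa* was called lower without ZT6 replicate C (-0.99, q = 0.048). Counts ranged from 5 to 8 for change with time, from 4 to 5 from ZT2 to ZT6 and from 4 to 6 for cycling over the omitted libraries, and stayed at 0 inside the clusters. Over the omitted libraries, the fold between the highest and lowest summed level ran from 1.31 to 1.70, highest without ZT6 replicate A, and the median gene-specific SD from 0.64 to 0.79. The fold was 1.26 with reads recovered from the normalized table, and the SD was 0.59 with the GC correction. With the recovered reads 6 of the 9 genes changed with time (*Tmem119* lost, q = 0.059). Causes were not tested.

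Replicate letters did not pair the libraries, since deviations of the 45 same-letter pairs correlated between -0.46 and 0.18 (median 0.0089). With the replicate block, 6 of the 9 genes changed with time (*Tmem119* lost, q = 0.081) and 7847 of all genes did, against 8343. Of the counts and summary values recomputed, 254 stayed within 1.5 times the value reported or within the spread of replicates, and 12 did not. This rule does not follow which genes are called. From ZT2 to ZT6 the GC correction left the count at 4, with *C1qa* lost and *Tmem119* gained. Of the results for single members, 447 kept their call or lack of one, 38 lost a call and 1 gained it.

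Low counts limit *Trem2*, with 11 to 587 reads per library, and *C1qa*, with 49 to 1069, more than *P2ry12*, with 500 to 3067.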
